A study of Solanum lycopersicum with 30 samples.

Results

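The 55 probe sets described here carry no gene symbol in the array's annotation and had a higher signal in tomato roots 24 h after ammonium was injected into their soil patch. A probe set is a group of short oligonucleotides on an Affymetrix array that reads a single transcript or a few related ones. The members were chosen by their measured values out of 10209 probe sets in all. A member is not an array or reporter control, has no gene symbol, and has a mean of at least 6 on the log2 scale over 30 arrays. Its mean at the high ammonium dose lies at least 0.6 above its mean in water in each of 2 genotypes, and its mean at the low dose lies between these means in each. All values are log2 MAS5 signals, so a difference of 1 is a doubling. Since no annotation used here pairs the members with genes, they are given by their array identifiers, and nothing is said of what they encode.

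The arrays measured RNA of roots of Solanum lycopersicum in 6 groups of 5 biological replicates, per the series' design text, which does not say whether an array pools plants. The plants were set into field soil when 8 weeks old and grew there for 5 weeks, and roots of the injected patch were taken. The mutant is rmc, with reduced mycorrhizal colonization, and its groups received water, ammonium labelled as 6.5 ppm (rmc low N) or ammonium labelled as 65 ppm (rmc high N). Its wild type, WT, received water, ammonium labelled as 10 µM (WT low N) or ammonium labelled as 100 µM (WT high N). The doses of both genotypes are given in different units, so a comparison of rmc with WT at low N or high N carries that difference as well. The p-values below measure the spread between these arrays.

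Roots take up ammonium through AMT transporters, and glutamine synthetase joins it to glutamate as the first step of its assimilation. In arbuscular mycorrhiza, soil fungi grow inside root cells and hand phosphate and nitrogen to the plant, which pays with carbon. Genes of ammonium uptake and assimilation in roots are known to respond to the local ammonium supply.

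Of 6590 unnamed probe sets with a mean of at least 6, the high N mean was at least 0.6 above the water mean for 159 (2.41%) in rmc and for 320 (4.86%) in WT. Both conditions held for 89 (1.35%), and 55 of these (0.835%) also had a low N mean in between in both genotypes. The mirror image, a high N mean at least 0.6 below water in both genotypes with low N in between, held for 62 (0.941%). Rises of this kind were therefore no more frequent than such falls among the unnamed probe sets. Of 672 probe sets with a gene symbol and a mean of at least 6, 12 (1.79%) met the same conditions as the members. Among these 12 were both probe sets of gts1, a glutamine synthetase gene, and that of AMT1-2, an ammonium transporter gene. The others were those of PAP1, SIP, CEVI-1, Mdip1, MDHAR, PT1, PMEU1, psi14B and UCP, which are not on the list of nitrogen genes used below.

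The difference between high N and water in the members had a median of 0.72 in rmc (1.65-fold), with a range of 0.60 to 3.67. In WT its median was 0.83 (1.78-fold), with a range of 0.61 to 1.65. The same median over all 7528 probe sets tested was -0.01 in rmc and -0.02 in WT. Most members lay close to the threshold: averaged over both genotypes the difference was under 1 for 42 members and at least 1 for 13. It was larger in rmc for 16 members and larger in WT for 39. These values chose the members, so they are a description with no test. Just inside the threshold were LesAffx.7583.1.S1_at, Les.4096.1.S1_at and Les.4824.1.S1_at, whose smaller difference was 0.60, 0.61 and 0.61. Just outside it were Les.1444.1.S1_at, Les.2718.2.S1_at and Les.2578.1.S1_at, at 0.5996, 0.598 and 0.595.

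**Figure D1:**
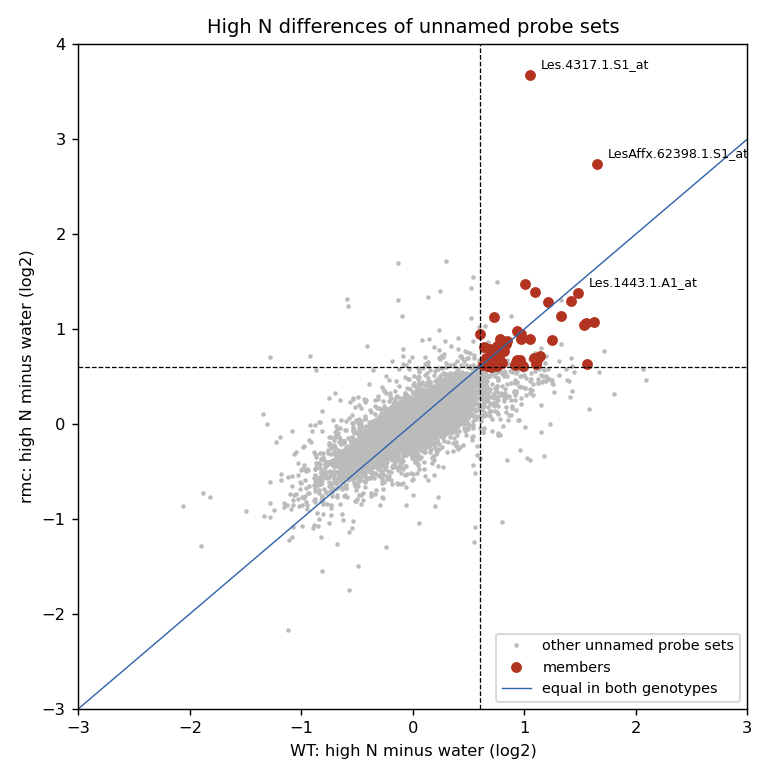
High N minus water (difference of group means, log2) in rmc on the vertical axis and in WT on the horizontal axis for 6590 unnamed probe sets with a mean of at least 6; red points are the 55 members, dashed lines mark 0.6, and the solid line marks equal differences. Les.4317.1.S1_at (3.67 in rmc, 1.05 in WT) and LesAffx.62398.1.S1_at (2.74 in rmc, 1.65 in WT) stand far above the other members, which crowd beside the dashed lines.

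The mean signal of the members lay between 6.13 and 11.22, with a median of 8.31, against a median of 8.64 over the probe sets tested. Their median SD within groups was 0.386, against 0.229 over the probe sets tested. The mean over all members was 7.83 ± 0.33 in rmc water, 8.21 ± 0.22 in rmc low N and 8.73 ± 0.43 in rmc high N (SD, n = 5). In WT it was 7.98 ± 0.13 in water, 8.43 ± 0.23 in low N and 8.93 ± 0.17 in high N (SD, n = 5). The spread between arrays in water and in high N was wider in rmc than in WT.

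More members had parted groups in WT, where the differences were also larger by the median. In rmc every high N array lay above every water array for 18 of 55 members, where 2.47% of all probe sets tested did so. In WT this held for 39 members, where 9.23% of the probe sets tested did so, and it held in both genotypes for 14 members, where 1.25% of the probe sets tested did so. The rule used these contrasts, so nothing is read from the counts beyond how the arrays lie. In rmc water the mean over the members was 7.48, 7.60 and 7.74 on arrays 1 to 3 but 8.27 and 8.04 on arrays 4 and 5. Arrays 4 and 5 of rmc water thus reached the range of the rmc low N arrays, 7.92 to 8.46. With both of these arrays left out, a setting chosen after the values were seen, 38 members parted in rmc (9.48% of the probe sets tested). The rule itself was then met by 177 unnamed probe sets.

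**Figure D2:**
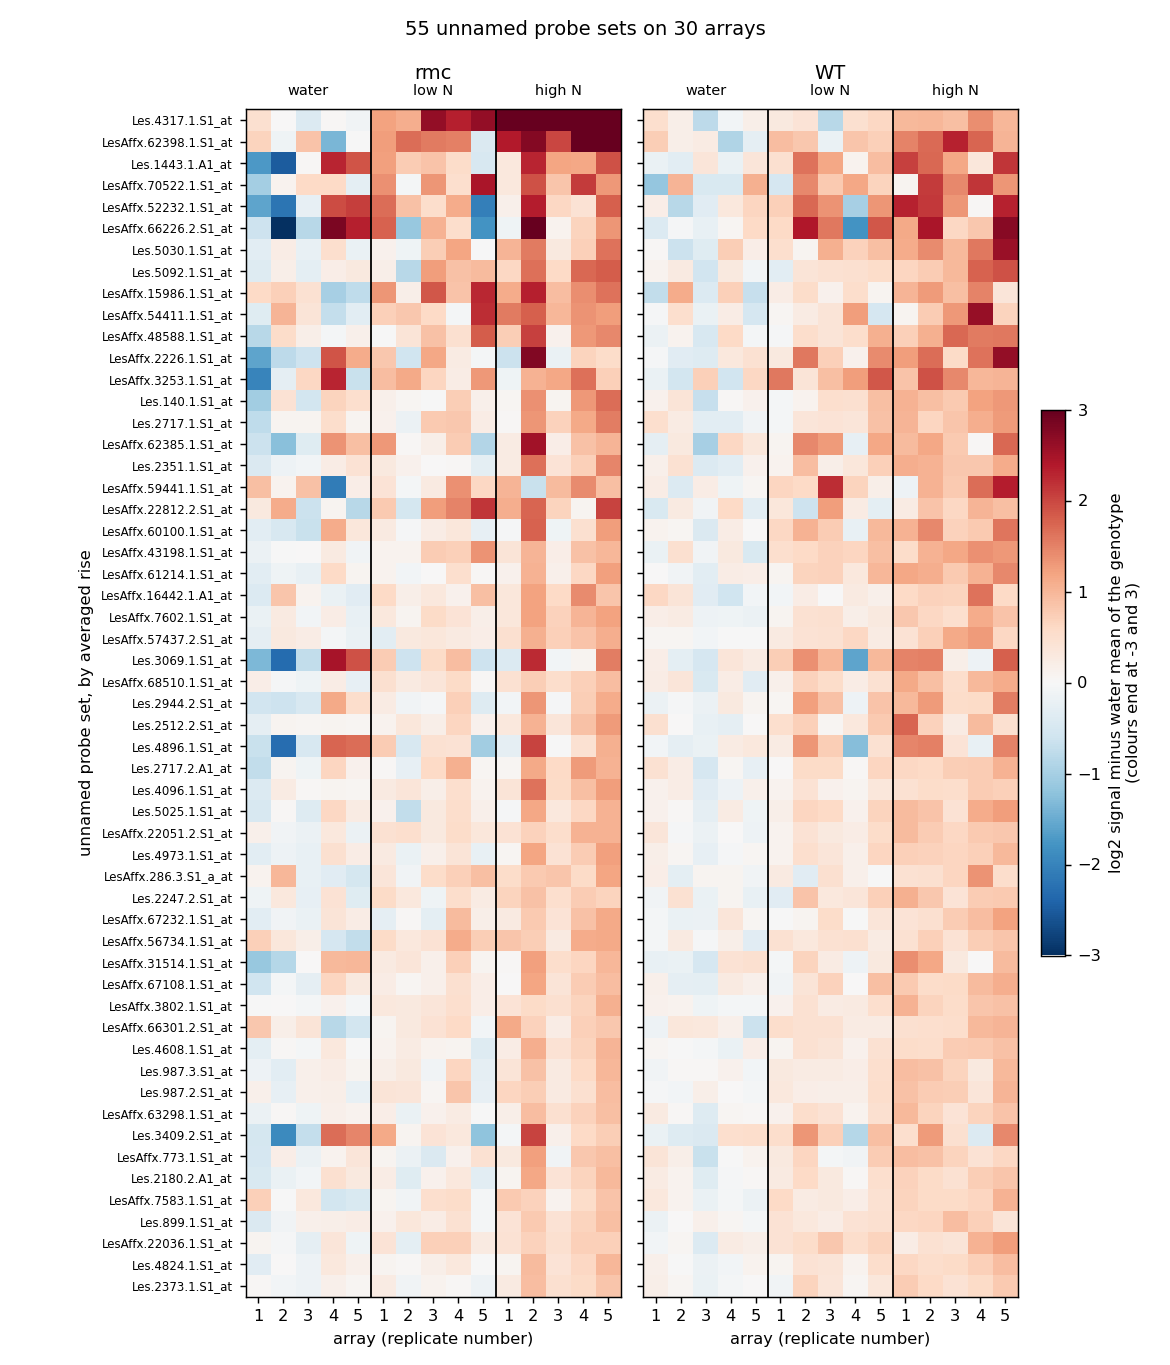
Log2 signal of the 55 members (rows, from the largest to the smallest high N difference averaged over genotypes) on each of 30 arrays, minus the water mean of the same genotype; columns are single arrays of rmc (left) and WT (right) in water, low N and high N. Colour deepens toward high N in most rows, while a few rows, LesAffx.66226.2.S1_at among them, are dark red on rmc water arrays 4 and 5 as well.

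At the low dose the members had covered part of the high N difference, as the rule asks. The share reached at low N had a median of 36.6% in rmc (quartiles 17.8% and 50.8%) and of 46.4% in WT (quartiles 37.4% and 54.1%). The rule holds each share between 0 and 100% but does not fix where in between. The share was under 25% for 19 members in rmc and for 3 members in WT, and over 75% for 6 members in rmc and for 5 members in WT. On linear signals the median share was 22.7% in rmc and 39.9% in WT. Leaving out single arrays gave medians of 20.3% to 44.6% in rmc and 39.9% to 52.8% in WT, so the ranges of the genotypes overlap. With rmc water arrays 4 and 5 both left out, the rmc median was 47.0%, and 9 members were under 25%. No test of the difference between the shares was run.

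Few members had parted from water at the low dose. Every low N array lay above every water array for 3 members in rmc (0.252% of the probe sets tested) and for 6 in WT (1.04%). Every high N array lay above every low N array for 4 members in rmc (1.21%) and for 10 in WT (1.74%).

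Les.4317.1.S1_at had the largest high N difference of the members in rmc. In rmc it read 8.65, 8.18, 7.74, 8.19 and 8.05 in water, 9.36, 9.24, 10.80, 10.49 and 10.80 in low N, and 11.36, 11.89, 11.69, 11.94 and 12.29 in high N. In WT it read 11.26, 10.93, 9.96, 10.66 and 10.91 in water, 11.03, 11.15, 9.91, 11.23 and 11.36 in low N, and 11.71, 11.74, 11.64, 12.14 and 11.74 in high N. In rmc the 3 treatments did not overlap at all, while in WT water and low N overlapped and both lay below high N. The genotypes met at high N and lay far apart in water.

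The difference between the genotypes was not part of the rule and was tested. In water Les.4317.1.S1_at was lower in rmc than in WT by 2.58 on the log2 scale, so that WT was 6.00-fold higher (log2 difference -2.58, SE 0.30, limma adjusted p = 5.80e-06). At low N the difference was -0.80 (adjusted p = 0.179) and at high N 0.04 (adjusted p = 0.970), neither of which passed. The high N response was 3.67 in rmc and 1.05 in WT, and these responses differed by 2.63 (SE 0.42, adjusted p = 0.00918). This was the only probe set of the 7528 tested whose high N response differed between the genotypes at an adjusted p under 0.05, which is 0.0133% of them. It also passed in each of 28 other settings, with adjusted p between 0.000389 and 0.0329. At an unadjusted p under 0.05, 96 probe sets differed in that response, of which 1 was a member. The rule bounds both responses from below but does not fix which is larger. The low N response of Les.4317.1.S1_at was 1.98 in rmc and 0.19 in WT, and that difference did not pass the adjustment (1.79, adjusted p = 0.928). For the low N response no probe set passed in limma (0% of those tested), and 184 had an unadjusted p under 0.05, 1 of them a member.

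LesAffx.62398.1.S1_at had the second largest difference averaged over the genotypes. In rmc it read 7.56, 6.77, 7.75, 5.52 and 6.88 in water, 8.16, 8.57, 8.46, 8.40 and 6.47 in low N, and 9.28, 9.66, 8.91, 9.91 and 10.39 in high N. In WT it read 8.38, 7.79, 7.88, 6.73 and 7.37 in water, 8.55, 8.44, 7.44, 8.46 and 8.34 in low N, and 9.11, 9.32, 9.93, 9.37 and 8.66 in high N. High N lay above both other treatments on every array of each genotype, while low N and water overlapped in both. Its high N difference was 2.74 in rmc and 1.65 in WT, and these did not differ past the threshold (1.09, SE 0.57, adjusted p = 0.999). The share reached at low N was 40.8% in rmc and 37.4% in WT.

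**Figure D3:**
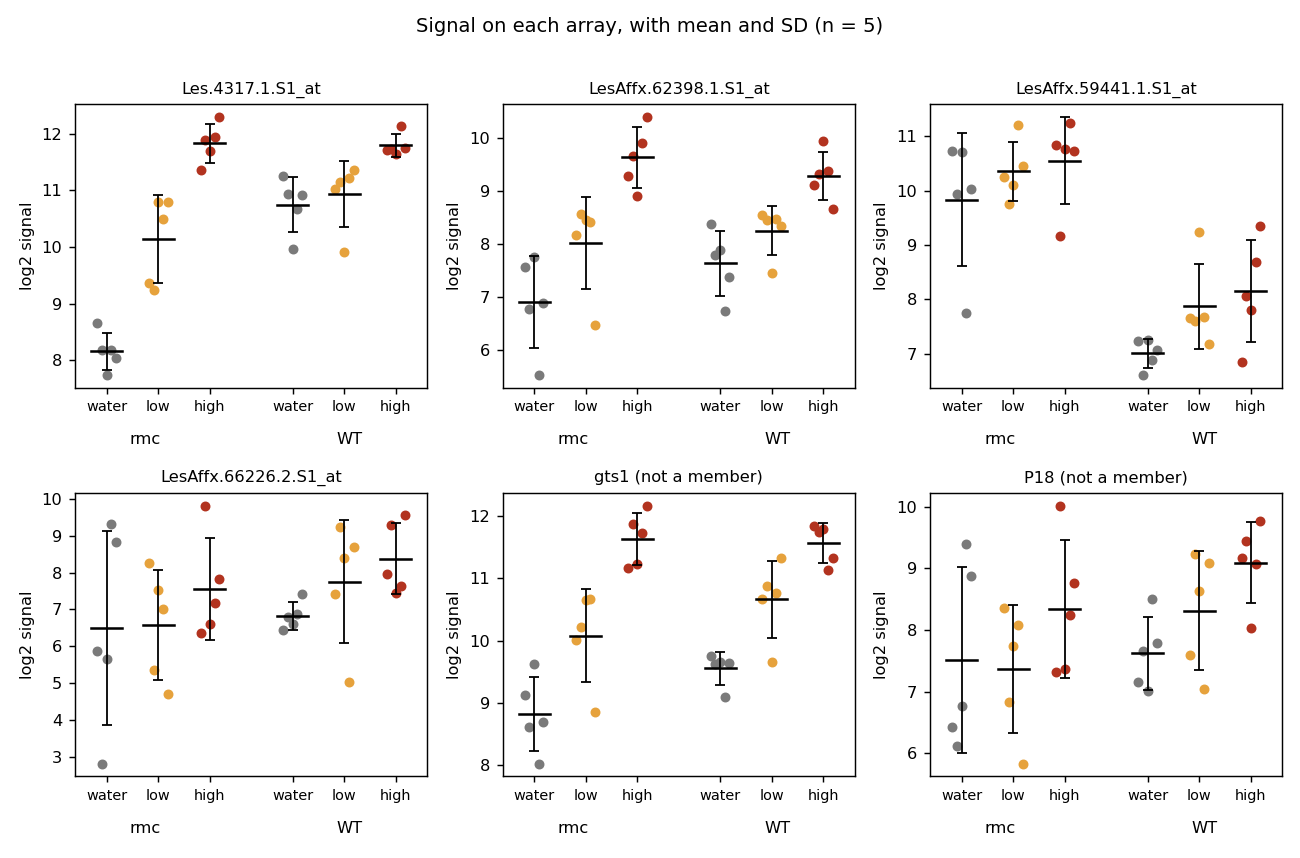
Log2 signal on each array (points), with group mean (line) and SD (bar, n = 5), in water, low N and high N, for rmc at the left and WT at the right of each panel; the first 4 panels are members and the last 2 are gts1 and P18, which have gene symbols. Les.4317.1.S1_at has a water mean of 8.16 in rmc but of 10.75 in WT, LesAffx.59441.1.S1_at lies higher in rmc in every treatment, and LesAffx.66226.2.S1_at scatters widely within groups.

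The next 10 members by averaged difference were less sharply parted. Les.5092.1.S1_at read 5.53, 6.10, 5.64, 6.13 and 6.21 in rmc water, 6.10, 5.09, 7.18, 6.80 and 6.87 in rmc low N, and 6.54, 7.57, 6.52, 7.64 and 7.74 in rmc high N. In WT it read 6.56, 6.73, 5.89, 6.74 and 6.38 in water, 6.15, 6.86, 6.91, 6.94 and 7.02 in low N, and 7.12, 7.22, 7.43, 8.23 and 8.38 in high N. High N lay above water on every array of both genotypes, while low N overlapped water in both and high N in rmc. Les.5030.1.S1_at and LesAffx.48588.1.S1_at parted high N and water in WT but not in rmc. Their high N differences were 1.04 and 1.13 in rmc, against 1.54 and 1.33 in WT.

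Several of the larger differences came with a wide spread. LesAffx.66226.2.S1_at read 5.87, 2.82, 5.65, 9.31 and 8.82 in rmc water, 8.26, 5.35, 7.54, 7.01 and 4.70 in rmc low N, and 6.37, 9.81, 6.61, 7.17 and 7.82 in rmc high N. In WT it read 6.43, 6.80, 6.61, 6.88 and 7.42 in water, 7.43, 9.22, 8.41, 5.03 and 8.69 in low N, and 7.97, 9.28, 7.46, 7.63 and 9.55 in high N. Its high N difference of 1.06 in rmc is smaller than its SD within groups of 1.58, whereas in WT every high N array lay above every water array. Les.1443.1.A1_at (1.37 in rmc, 1.48 in WT; SD within groups 1.04) and LesAffx.52232.1.S1_at (1.07 in rmc, 1.62 in WT; SD 1.25) overlapped between high N and water in both genotypes. Both also read highest among the rmc water arrays on arrays 4 and 5, at 9.66 and 9.28 for Les.1443.1.A1_at and at 7.46 and 7.56 for LesAffx.52232.1.S1_at. LesAffx.2226.1.S1_at differed by 0.63 in rmc and 1.56 in WT, LesAffx.54411.1.S1_at by 1.39 in rmc and 1.09 in WT, LesAffx.70522.1.S1_at by 1.29 in rmc and 1.42 in WT, and LesAffx.15986.1.S1_at by 1.48 in rmc and 1.01 in WT.

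Apart from Les.4317.1.S1_at, the 6 members of highest mean signal had small differences. Les.899.1.S1_at, the member of highest mean, read 10.49, 10.82, 11.09, 11.10 and 11.16 in rmc water, 11.06, 11.27, 11.15, 11.39 and 10.88 in rmc low N, and 11.34, 11.71, 11.37, 11.61 and 11.83 in rmc high N. In WT it read 10.70, 10.88, 11.03, 10.94 and 10.81 in water, 11.30, 11.20, 11.08, 11.30 and 11.35 in low N, and 11.50, 11.51, 11.79, 11.59 and 11.25 in high N. Every high N array of each genotype lay above every water array, although the differences were 0.64 in rmc and 0.66 in WT. LesAffx.63298.1.S1_at (0.64 in rmc, 0.72 in WT) parted likewise, while Les.4824.1.S1_at (0.61 in rmc, 0.67 in WT) and LesAffx.66301.2.S1_at (0.71 in rmc, 0.70 in WT) parted in WT but not in rmc. The sixth, LesAffx.286.3.S1_a_at (0.78 in rmc, 0.69 in WT), also parted in WT alone.

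Averaged over the 3 treatments, 46 of 55 members had a lower mean in rmc than in WT, where 50.2% of all probe sets tested did. The median of the members was -0.20 and that of the probe sets tested -0.00. In the limma fit 1 member was higher in rmc and 7 were lower at an adjusted p under 0.05, against 4.72% of the probe sets tested that were higher and 7.61% that were lower. The share of members called higher was below the background, and 7 of 55 called lower was above it by few members. At an unadjusted p under 0.05, 19 members and 2051 probe sets differed.

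Within single treatments few members passed. In water 1 member was higher in rmc and 1 lower, against 0.199% and 0.279% of the probe sets tested. At low N 1 was higher and 1 lower, against 0.531% and 1.42%. At high N 1 was higher and 0 were lower, against 0.465% and 0.624%; 6 members and 927 probe sets had an unadjusted p under 0.05 there.

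LesAffx.59441.1.S1_at was the member called higher in rmc in each treatment. In rmc it read 10.73, 9.94, 10.70, 7.74 and 10.04 in water, 10.25, 9.76, 10.10, 11.21 and 10.46 in low N, and 10.84, 9.16, 10.77, 11.24 and 10.73 in high N. In WT it read 7.24, 6.61, 7.24, 6.89 and 7.06 in water, 7.65, 7.60, 9.23, 7.68 and 7.18 in low N, and 6.85, 8.05, 7.80, 8.69 and 9.35 in high N. The genotypes did not overlap in water or low N, and at high N a single rmc array at 9.16 lay below the highest WT array. Averaged over treatments rmc was 5.93-fold higher (2.57, SE 0.29, limma adjusted p = 7.20e-07). The difference was 2.82 in water (7.07-fold, adjusted p = 0.00281), 2.49 at low N (adjusted p = 0.00762) and 2.40 at high N (adjusted p = 0.0126). In a fit of only the groups compared, the water call (adjusted p = 0.0527) and the high N call (adjusted p = 0.121) were lost. The high N call was also lost without WT high N array 1 (adjusted p = 0.0700) and without rmc high N array 4 (adjusted p = 0.0520). Against this genotype difference its high N difference was small, at 0.72 in rmc and 1.14 in WT.

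Les.2512.2.S1_at was lower in rmc, by 0.84 averaged over treatments (-0.84, SE 0.13, limma adjusted p = 6.40e-05) and by 0.95 at low N (-0.95, adjusted p = 0.0198). In rmc it read 5.63, 5.97, 5.95, 5.97 and 5.96 in water, 6.00, 6.23, 6.08, 6.54 and 6.02 in low N, and 6.20, 6.93, 6.26, 6.77 and 7.16 in high N. In WT it read 7.12, 6.66, 6.44, 6.39 and 6.66 in water, 7.16, 7.36, 6.71, 6.96 and 7.44 in low N, and 8.41, 7.34, 6.91, 7.59 and 7.13 in high N. Every rmc array in water and in low N lay below every WT array of the same treatment, and at high N the genotypes overlapped. The low N call did not survive leaving out rmc low N array 1 or 5 or WT low N array 2 or 5 (adjusted p 0.0592 to 0.0757), nor scaling to the poly-A controls (adjusted p = 0.251). Les.2512.3.S1_at, which has the same number and a higher mean of 10.98, was not lower in rmc. Its means in rmc and WT were 11.04 and 10.86 in water, 10.98 and 10.98 in low N, and 11.04 and 10.97 in high N. Its r of deviations with the member was -0.08.

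The other members lower in rmc over the treatments differed less. LesAffx.43198.1.S1_at was lower by 0.45 (-0.45, adjusted p = 0.0158), and LesAffx.57437.2.S1_at and Les.4096.1.S1_at by 0.32 each (-0.32; adjusted p = 0.0151 and 0.0269). Les.4317.1.S1_at averaged -1.11 (adjusted p = 7.87e-05), which rests on its water and low N values. The 2 remaining called members, named after their values were seen, were LesAffx.7602.1.S1_at (-0.32, adjusted p = 0.0158) and Les.4608.1.S1_at (-0.26, adjusted p = 0.0402). The call of Les.4608.1.S1_at was lost in 17 of 38 other settings. Scaled to the poly-A controls, the calls of LesAffx.43198.1.S1_at (adjusted p = 0.144), LesAffx.57437.2.S1_at (0.160), LesAffx.7602.1.S1_at (0.210), Les.4096.1.S1_at (0.257) and Les.4608.1.S1_at (0.281) were lost. That of Les.4096.1.S1_at was also lost without rmc high N array 3 (adjusted p = 0.0517).

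**Figure D4:**
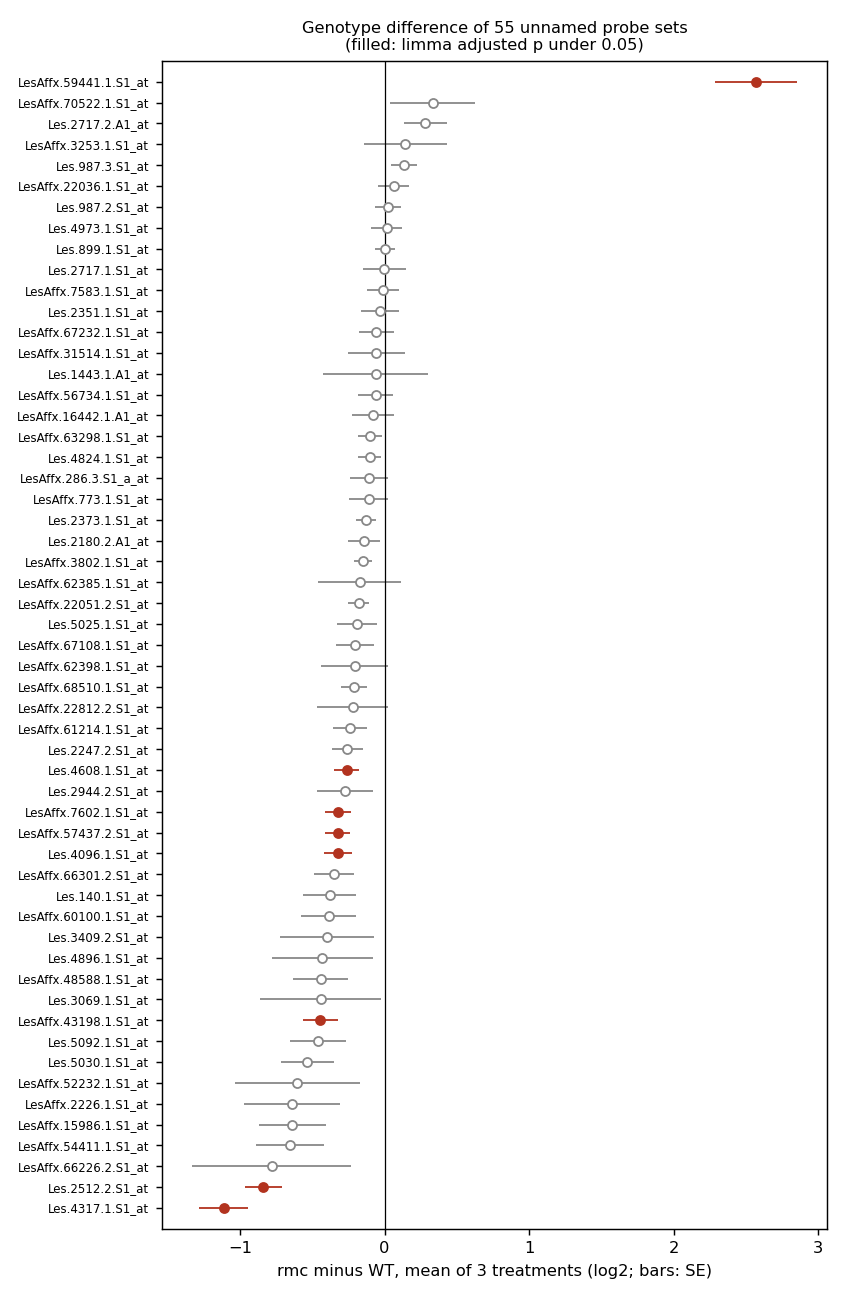
Difference of rmc minus WT averaged over water, low N and high N (log2, horizontal axis, bars are SE from the limma fit) for each of the 55 members; filled red points have an adjusted p under 0.05. LesAffx.59441.1.S1_at stands alone at 2.57, 7 members are called below 0, and most of the others lie left of 0 without passing.

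How the members varied among arrays of the same group was not used by the rule. Each array's deviation from its group mean was taken, and Pearson correlations over the 30 arrays are given as a description. The points share RNA, scaling and array quality. Pairs of members had a median r of 0.31 (quartiles 0.02 and 0.54), against 0.01 for pairs of other unnamed probe sets tested. For 34 members r with the mean of the other members was above 0.5. So a large part of the members read high or low together on the same arrays. The members were all chosen for a rise, while the other probe sets include falls and flat ones. No other set chosen for a single direction was set beside them, so this is not shown to be particular to the members.

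The 5 named probe sets most like the mean of the members in these deviations, out of 690, were copz2 (r = 0.92), tft8 (0.90), DEM (0.89), MKK3 (0.89) and P18 (0.89). The copz2 gene encodes a coatomer subunit, tft8 a 14-3-3 protein, MKK3 a kinase of a MAP kinase cascade, DEM a protein known from embryo and meristem mutants of tomato, and P18 a dUTPase. The dUTPase removes dUTP and is known to be abundant in dividing plant cells. P18 and gts1 were set against each member after these values were seen. P18 came from the 5 named probe sets most like the mean of the members. An excess of members past 0.5 with P18 therefore follows from that choice and is no separate result. With P18, r was above 0.5 for 26 members (47.3%) and for 18.01% of the other probe sets tested. With gts1 it was above 0.5 for 2 members (3.64%) and for 2.29% of the others, and no member passed 0.5 with both.

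**Figure D5:**
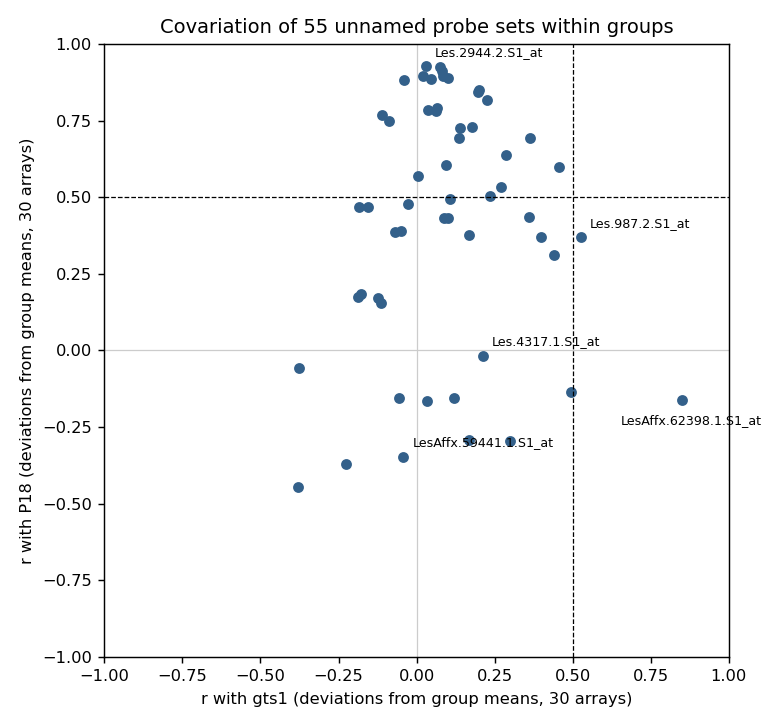
Pearson r of each of the 55 members with gts1 (horizontal axis) and with P18 (vertical axis), from deviations of 30 arrays from their group means; dashed lines mark 0.5. LesAffx.62398.1.S1_at stands alone at the right with r = 0.85 for gts1, while 26 members lie above 0.5 for P18.

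Of the probe sets tested, gts1 had the highest r with LesAffx.62398.1.S1_at, by a narrow margin. That r was 0.85 (rho = 0.76, and r = 0.77 without the 2 arrays farthest from the median). The next highest r values with this member were 0.843, 0.838, 0.798 and 0.781, against 0.849 for gts1. All of these came from probe sets with no gene symbol, so the likeness was not particular to gts1. The second gts1 probe set gave r = 0.73 and AMT1-2 gave 0.58. Arrays that read low for LesAffx.62398.1.S1_at within their group read low for gts1 as well: rmc water array 4 read 5.52 for the member and 8.03 for gts1, the lowest of the group for both. On rmc low N array 5 the member read 6.47 and gts1 8.85, again the lowest of their group. On WT low N array 3 they read 7.44 and 9.66, which were also the lowest. The high N difference of gts1 was 2.81 in rmc and 2.01 in WT, beside 2.74 in rmc and 1.65 in WT for the member. Les.987.2.S1_at, the other member past 0.5 with gts1, had r = 0.53. Les.4317.1.S1_at, in contrast, had r = 0.21 with gts1 and 0.08 with LesAffx.62398.1.S1_at.

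The members were also split by their r with P18, after the values were seen and with no test. For the 26 past 0.5, the share of the high N difference reached at low N had a median of 20.4% in rmc and 48.2% in WT, and for the 29 members with an r of 0.5 or less it was 50.6% in rmc and 42.4% in WT. In rmc 16 of the 26 were under 25% at low N, and 3 of the 29. High N lay above water on every rmc array for 4 of the 26 and for 14 of the 29, and on every WT array for 19 of the 26 and 20 of the 29. Of all probe sets tested, 2.47% did so in rmc and 9.23% in WT. The split by P18 bears on the rmc values of the subsets, so their differences in rmc are no independent result. P18 read high on rmc water arrays 4 and 5. With both left out, the median share in rmc was 50.2% for the 26 and 45.3% for the 29. Then 4 of the 26 and 5 of the 29 were under 25%. High N lay above water on every rmc array left for 21 of the 26 and 17 of the 29. Of all probe sets tested 9.48% did so, and fewer water arrays are easier to part from. The 26 were chosen by likeness to P18, so their change without these arrays follows from that choice and is no separate result. P18 itself read 6.42, 6.12, 6.76, 9.39 and 8.87 in rmc water, 8.36, 6.83, 7.74, 8.09 and 5.83 in rmc low N, and 7.31, 10.02, 7.37, 8.25 and 8.76 in rmc high N. In WT it read 7.15, 7.66, 7.01, 8.50 and 7.78 in water, 7.59, 9.23, 8.63, 7.03 and 9.08 in low N, and 9.17, 9.44, 8.03, 9.07 and 9.77 in high N. Arrays 4 and 5 of rmc water were the highest of their group for P18, as for Les.1443.1.A1_at, LesAffx.52232.1.S1_at and LesAffx.66226.2.S1_at. The member most like P18, picked for that value, was Les.2944.2.S1_at (r = 0.93).

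Markers of dividing cells and other tissues were read on the same arrays. Of 13 genes listed for dividing cells and root tips, 6 had a probe set (CDKB1, CycA1, P18, PCNA, TUB and cdc2A-2), and none was at 0. For each list the signals were summed and then put on the log2 scale, so the strongest probe sets weigh most. For these 6 the value lay between 10.66 and 12.02 in rmc water, 10.92 and 11.37 in rmc low N, and 10.93 and 12.41 in rmc high N. In WT it lay between 10.83 and 11.44 in water, 10.98 and 11.96 in low N, and 11.36 and 12.35 in high N. CDKB1, CycA1, P18, PCNA and TUB had a higher mean in high N than in water in both genotypes. In rmc these differences ran from 0.25 (PCNA) to 0.83 (P18), beside SDs in rmc water of 0.75 to 1.57. At low N all of them lay above water in WT. In rmc low N, CDKB1 (-0.31), CycA1 (-0.37), P18 (-0.14) and PCNA (-0.09) lay below water, and TUB (0.18) above it. The high N difference of cdc2A-2 was -0.16 in rmc and -0.35 in WT. The 3 listed shoot genes with a probe set, of 14, summed to 9.27 to 10.90 in rmc high N against 10.75 to 11.37 in rmc water, and to 9.73 to 10.30 in WT high N against 10.49 to 11.29 in WT water. They were PSBR, Psy1 and CAB4, and PSBR, with a mean of 10.10, weighed most. PSBR and the Psy1 probe sets were lower in high N than in water in both genotypes. CAB4, at a low mean of 4.46, differed by 0.24 in rmc and -0.51 in WT. Of 10 root genes 6 were on the array, with FRO1 and ext1 at low means of 2.88 and 1.83, and of the listed vascular and mycorrhizal markers 0 were. The root genes summed to means of 11.85, 11.55 and 11.88 in rmc water, low N and high N and of 11.22, 11.74 and 11.74 in WT water, low N and high N. Among them FER and NRAMP1 were lower in high N than in water in both genotypes, and PT2 was higher. RSI-1, with the highest mean of the root genes (10.69), differed by -0.07 in rmc and 0.76 in WT. CYP1, the 1 of 4 senescence genes with a probe set, had means of 10.90, 10.91 and 10.56 in rmc and of 11.09, 10.90 and 10.71 in WT at the same treatments. The part of these cell types in the members' differences was not tested. In RNA of whole roots, fewer cells of a type and less RNA per cell cannot be told apart.

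Some quality measures of the arrays moved with the dose as well. Poly-A control RNA averaged 8.94, 8.63 and 8.06 in rmc water, low N and high N and 8.58, 8.42 and 8.24 in WT water, low N and high N. The GAPDH 3' minus 5' difference was 0.22, 0.07 and -0.14 in rmc and 0.21, 0.05 and -0.12 in WT at the same treatments. The actin 3' minus 5' difference was 0.17, 0.20 and 0.19 in rmc, with no steady course, and 0.18, 0.14 and 0.08 in WT. Over deviations from group means the mean of the members had r = -0.52 with the poly-A controls and r = -0.67 with that GAPDH difference. The part of RNA amount and quality in the members' differences was not tested. Scaled to the poly-A controls in place of the authors' scaling, 1189 of the 6590 unnamed probe sets met the rule, the 55 members among them. These controls fell with the dose in both genotypes, so this scaling raises the low N and high N differences of every probe set. That the 55 members met the rule again was therefore fixed in advance.

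Array identifiers give one more view of the members. 31 of 55 (56.4%) have a number that starts with LesAffx, against 40.7% of the 6590 unnamed probe sets, and 24 start with Les. 54 end in _at and 1 in _a_at, a suffix Affymetrix gives to probes shared by transcripts of 1 gene. Probe sets with the same number read the same cluster of transcripts. The pairs Les.2717.1.S1_at with Les.2717.2.A1_at and Les.987.2.S1_at with Les.987.3.S1_at are both inside the group, so 55 members are fewer than 55 independent readings. Les.2717.1.S1_at differed by 0.94 in rmc and 0.97 in WT and Les.2717.2.A1_at by 0.82 and 0.75 (r of deviations 0.89). Les.987.2.S1_at differed by 0.61 in rmc and 0.75 in WT and Les.987.3.S1_at by 0.62 and 0.75 (r of deviations 0.86).

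Beyond these pairs, 28 further probe sets share a number with a member. Of the 22 with a mean of at least 6, 20 were higher in high N than in water in both genotypes, but 1 by at least 0.6 in both. That was Les.2351.2.A1_at, named after its values were seen, at 0.69 in rmc and 0.73 in WT. The count of 20 takes any difference above 0, such as 0.004 in rmc and 0.11 in WT for Les.2512.3.S1_at. No share over all probe sets tested is given beside it, so nothing is read from that count. LesAffx.286.2.S1_a_at, annotated as LOC778315, shares a number with the member LesAffx.286.3.S1_a_at. It differed by -0.10 in rmc and -0.01 in WT, where the member differed by 0.78 in rmc and 0.69 in WT, so the probe sets of that number did not move alike.

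Among named genes of nitrogen uptake and assimilation, 5 probe sets were on the array, and 3 of them, both of gts1 and that of AMT1-2, met the rule's conditions. AMT1-2 differed by 1.35 in rmc and 1.07 in WT. The mitochondrial glutamate dehydrogenase gene gdh1 differed by 0.74 in rmc and 0.24 in WT, and GS2, the plastid glutamine synthetase, by 0.47 in rmc and 1.23 in WT, so neither met them. The averaged difference of Les.4317.1.S1_at (2.36) and LesAffx.62398.1.S1_at (2.19) was near those of the gts1 probe sets (2.41 and 2.20), and that of every other member was smaller.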

How the data were processed

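Per the submitters' processing notes, Affymetrix Expression Console and MAS5 were used, with no version given here. The authors deposited log2 signals, whose linear form has a 2% trimmed mean near 500.0 on every array; changes are thus relative to an array's mean. The number of arrays limits the precision. From 10209 probe sets, 108 array and 63 reporter controls were left out. For tests the lowest 25% by mean were left out, leaving 7528.

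Differences were fitted with limma 3.58.1 in R 4.3.3 (6 group means over 30 arrays, eBayes with intensity trend). Two-sided p-values were adjusted by Benjamini-Hochberg over all 7528, with a threshold of 0.05. The fit was tested on simulated data. The members and lists were chosen with earlier results of these data known. Members named are the 12 largest averaged differences, the 6 highest means, up to 5 per direction called between genotypes, those called for the difference of responses, those nearest the threshold and pairs of one number. Other scalings, filters, thresholds, fits and left-out arrays were tried. Other steps ran in Python 3.11.15 (pandas 2.3.3). No batch is given in the sources used here. No sequences were used here.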

Additional observations from a re-analysis of the deposited data

Results flagged for a closer look

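In 168 groups of 5 arrays, those of 27 members and of the mean of the members, an array was listed where its gap to the nearest other array exceeded 0.71 of the group's range; chance lists about 1 group in 20. On WT low N array 3, Les.4317.1.S1_at read 9.91 (others 11.03 to 11.36), LesAffx.62398.1.S1_at read 7.44 (others 8.34 to 8.55) and LesAffx.59441.1.S1_at read 9.23 (others 7.18 to 7.68). On rmc low N array 5, LesAffx.62398.1.S1_at read 6.47 (others 8.16 to 8.57). LesAffx.59441.1.S1_at read 9.16 on rmc high N array 2 (others 10.73 to 11.24) and 7.74 on rmc water array 4 (others 9.94 to 10.73). On WT high N array 4, Les.4317.1.S1_at read 12.14 (others 11.64 to 11.74) and LesAffx.286.3.S1_a_at read 11.68 (others 10.78 to 10.98). Les.5092.1.S1_at read 6.15 on WT low N array 1, LesAffx.57437.2.S1_at read 6.91 on rmc low N array 1, and Les.2512.2.S1_at read 5.63 on rmc water array 1, each below the other arrays of its group. Les.987.3.S1_at read 9.24 on WT low N array 5 and LesAffx.7583.1.S1_at read 10.70 on WT high N array 5, each above the other arrays. The mean of the members was 7.75 on WT water array 3, where the other WT water arrays gave 8.03 to 8.07.

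The high N response of Les.4317.1.S1_at was larger in rmc than in WT by 2.63 on the log2 scale, by the limma test of the difference itself (adjusted p = 0.00918). The labelled doses differ between the genotypes in the same comparison.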

How the results depend on the processing

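The number of unnamed probe sets that met the rule was 49 with quantile normalization (47 of them members), 53 with median centring (49 members) and 62 with a mean of at least 5. It was 1189 with scaling to the poly-A controls, 105 with a difference of at least 0.5, 18 with at least 0.8, 32 with a mean of at least 8 and 89 with no condition on low N. Leaving out single arrays gave 33 to 135: it was 135 without rmc water array 4, 114 without rmc water array 5, 33 without rmc high N array 2 and 36 without rmc high N array 5. In each of the 30 settings that leave out 1 array, 12 of the 55 members met the rule. With rmc water arrays 4 and 5 both left out, chosen after seeing the data, 38 members parted in rmc (9.48% of the probe sets tested), without array 4 alone 23 did (4.25%), and without array 5 alone 19 (3.06%). Scaling to the poly-A controls gave a median r between members of 0.65. That scaling shifts all probe sets of an array alike, so the deviations of all of them share a term. No value for pairs of other probe sets is given beside it, so nothing is read from that r.

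Members called between rmc and WT in water were 2 in every setting that left out an array and 1 with only the groups compared. At low N they were 1 to 2, with 1 under poly-A scaling and 1 with the lowest 50% left out. At high N they were 0 to 2, with 0 with only the groups compared. The averaged difference called 6 to 10 members, and 3 under poly-A scaling (1.90% of the probe sets tested were called). The difference of responses called 1 member at high N and 0 at low N whichever array was left out. Medians of the share at low N were 20.3% to 44.6% in rmc and 39.9% to 52.8% in WT; the rmc median was 47.0% without rmc water arrays 4 and 5. The cause of these changes was not tested.

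Arrays of different groups with the same replicate number had correlations of their deviations from -0.62 to 0.65. The medians for single numbers ran from -0.04 to 0.24. Arrays of different groups with unlike numbers gave -0.75 to 0.75, with a median of -0.02. Such wide ranges cannot tell whether the numbers pair the arrays. With the replicate number as a block, 2 members were called in water (0.677% of the probe sets tested were), 3 at low N (2.72%), 1 at high N (1.63%), 9 averaged (15.3%), 1 for the high N response (0.0133%) and 0 for the low N response (0%). Signals near background and 5 arrays a group limit how small a difference could be called.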
